A study of Mus musculus with 2 samples.

Results

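A set of 8 miRNA genes known from the pancreas, liver and gut was followed in the developing mouse midbrain, out of 1973 miRNA genes counted in the series. They are Mir375, the Mir216b, Mir216a and Mir217 cluster, the Mir194-2 and Mir192 cluster, and the Mir194-1 and Mir215 cluster. The genes were chosen by symbol, through the match of each counted gene identifier to the GENCODE mouse annotation, and all 8 members had a row in both libraries. The series holds 1 group, midbrain of B6NCrl embryos (a C57BL/6N strain) at 14.5 days, with 2 biological replicates, and the labels name no treatment, mutation or other tissue. The labels give both replicates as pup 1 of pregnancy 2 under a shared donor identifier, dissected on different days, and give the sex as mixed. Nothing but the dissection day tells the animals apart, so the SDs may be technical. With a single group no comparison of conditions was possible, and the values below describe levels and their spread.

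A miRNA is cut from a hairpin in a longer primary transcript and then guides Argonaute to messages that pair with its seed, the bases near its 5′ end. miR-375 is the best known miRNA of the pancreatic islet, where it restrains insulin secretion, and it is also found in other neuroendocrine cells such as those of the pituitary. miR-216a, miR-216b and miR-217 are best known from the exocrine, acinar cells of the pancreas. miR-192, miR-194 and miR-215 are made in the epithelium of the gut, in liver and in kidney, from a pair of related gene clusters that in human cells respond to p53.

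The sequences below are shown because the seeds decide which of these genes act as one family, and because shared bases decide which of them the read counts can tell apart. They are RefSeq entries on GRCm38.p6, whose coordinates are those of mm10, and all 8 members were matched there by symbol. Capitals mark the seed, bases 2 to 8.
mmu-miR-216b-5p: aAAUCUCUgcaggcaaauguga
mmu-miR-216a-5p: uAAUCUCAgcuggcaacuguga
mmu-miR-217-5p: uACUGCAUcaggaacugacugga
mmu-miR-194-5p: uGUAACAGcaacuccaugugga
mmu-miR-192-5p: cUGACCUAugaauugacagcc
mmu-miR-215-5p: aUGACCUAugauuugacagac

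miR-192-5p and miR-215-5p had the same seed, UGACCUA, and were identical at 18 of 21 bases. Counted from 1 at the 5′ end, with miR-192-5p given before miR-215-5p, the differences were C1A, A12U and C20A. miR-216a-5p and miR-216b-5p were identical at 18 of 22 bases, with miR-216a-5p given first differing as U1A, A8U, U11A and C17A. Because A8U falls on the last base of the seed, AAUCUCA and AAUCUCU are separate seeds. In the RefSeq table no locus outside these 8 held the 5p seed of miR-216a, miR-216b, miR-217, miR-192, miR-215 or miR-194. The hairpin of Mir375, which gave the highest count of the 8 genes, follows with the bases of mmu-miR-375-5p in capitals. The capitals mark the arm with an entry in the table used here; the islet miRNA is the other arm, miR-375-3p, and the counts do not tell the arms apart.
Mir375 hairpin: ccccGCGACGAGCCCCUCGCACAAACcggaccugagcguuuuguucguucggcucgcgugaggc

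The Mir194-1 and Mir194-2 hairpins both give miR-194-5p. Capitals mark the 22 bases that they have in common, the longest exact stretch that either shares with another miRNA hairpin.
Mir194-1 hairpin: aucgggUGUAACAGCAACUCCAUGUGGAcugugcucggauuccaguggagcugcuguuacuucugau
Mir194-2 hairpin: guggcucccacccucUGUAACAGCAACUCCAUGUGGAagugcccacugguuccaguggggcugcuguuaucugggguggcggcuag

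This stretch is the whole of miR-194-5p, so a read of exactly these bases has 2 equal places in the genome. The deposited tables list such reads in a class of their own, outside the genes. That class held 36.2% of all reads in replicate 1 and 36.9% in replicate 2. The next base is C in Mir194-1 and A in Mir194-2, so a read that runs on by 1 base past miR-194-5p can be placed. This holds only if that base was copied from the gene. An A of any other source would match Mir194-2, and its part in the counts was not tested. The 3p arms, miR-194-1-3p and miR-194-2-3p, are also distinct, with 18 of 22 bases identical. Counts of both Mir194 genes are therefore uncertain and may be too low, and their sum leaves out every read that could not be placed. None of the other 6 genes shared more than 13 bases in a row with another, non-overlapping annotated miRNA hairpin.

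Mir375 had the highest read count of the 8 genes. It had 3085 sense reads in replicate 1, or 422 CPM (counts scaled to the sense total of miRNA genes), and 1581 reads or 399 CPM in replicate 2, a mean of 411 ± 16.9 CPM (SD, n = 2). The exact Poisson 95% intervals were 408 to 438 CPM and 379 to 419 CPM. They overlapped, and the gene ranked in place 136 and 142 of all miRNA genes. Mature miRNAs of these genes are 21 to 23 bases long, so levels are compared without scaling by length. All levels and ratios between genes are of counted reads. Whether the library preparation captured different miRNAs equally well was not tested. Mir375 (ENSMUSG00000065616.2) lies at chr1:74900658-74900721 on the minus strand of mm10. It lies between the lens crystallin gene Cryba2 and the ciliary gene Cfap65, and no annotated gene overlaps it.

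Mir217 followed with 332 CPM in replicate 1 and 389 CPM in replicate 2, from 2424 and 1544 reads. Its mean of 361 ± 40.5 CPM lay below that of Mir375. The order was not resolved in replicate 2, where Mir375 exceeded it 1.02-fold with an exact interval of 0.954 to 1.10, although in replicate 1 the ratio was 1.27 with an interval of 1.21 to 1.34. Mir216b had 136 and 147 CPM (992 and 583 reads, mean 141 ± 7.87). Mir216a had 67.6 and 72.6 CPM (494 and 288 reads, mean 70.1 ± 3.51). The 3 genes of this cluster thus kept the same order in both libraries, with ranges that did not overlap.

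The Mir194-2 and Mir192 genes were the higher of the liver and gut clusters. Mir194-2 had 723 reads or 99.0 CPM in replicate 1 and 536 reads or 135 CPM in replicate 2, a mean of 117 ± 25.5 CPM. Mir192 had 726 reads or 99.4 CPM and 464 reads or 117 CPM, a mean of 108 ± 12.4 CPM. Both genes had their higher value in replicate 2, and their values overlapped. In the order of levels they stood between Mir216b and Mir216a. Mir216b exceeded Mir194-2 1.23 ± 0.201-fold, with an exact interval of 1.25 to 1.51 in replicate 1 but 0.966 to 1.23 in replicate 2, so these neighbours were not separated in both. It exceeded Mir192 1.31 ± 0.0777-fold, with intervals of 1.24 to 1.51 and 1.11 to 1.42. Mir192 exceeded Mir216a 1.54 ± 0.100-fold, with exact intervals of 1.31 to 1.65 in replicate 1 and 1.39 to 1.87 in replicate 2. The pancreas and gut genes therefore interleaved, and the acinar Mir216a was below both.

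The second liver and gut cluster was nearly silent in the counts. Mir194-1 had 7 reads in each library, 0.959 CPM in replicate 1 (exact Poisson 95% interval 0.385 to 1.97) and 1.76 CPM in replicate 2 (0.709 to 3.64). Mir215 had 3 and 4 reads, 0.411 CPM (0.0847 to 1.20) and 1.01 CPM (0.275 to 2.58). Both lay close to the level of 3 reads, 0.411 CPM in replicate 1 and 0.756 CPM in replicate 2. Mir215 has no near-identical copy among annotated hairpins, whereas Mir194-1 shares miR-194-5p with Mir194-2. PCR copies reads, so these bounds hold for counting error alone.

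**Figure D1:**
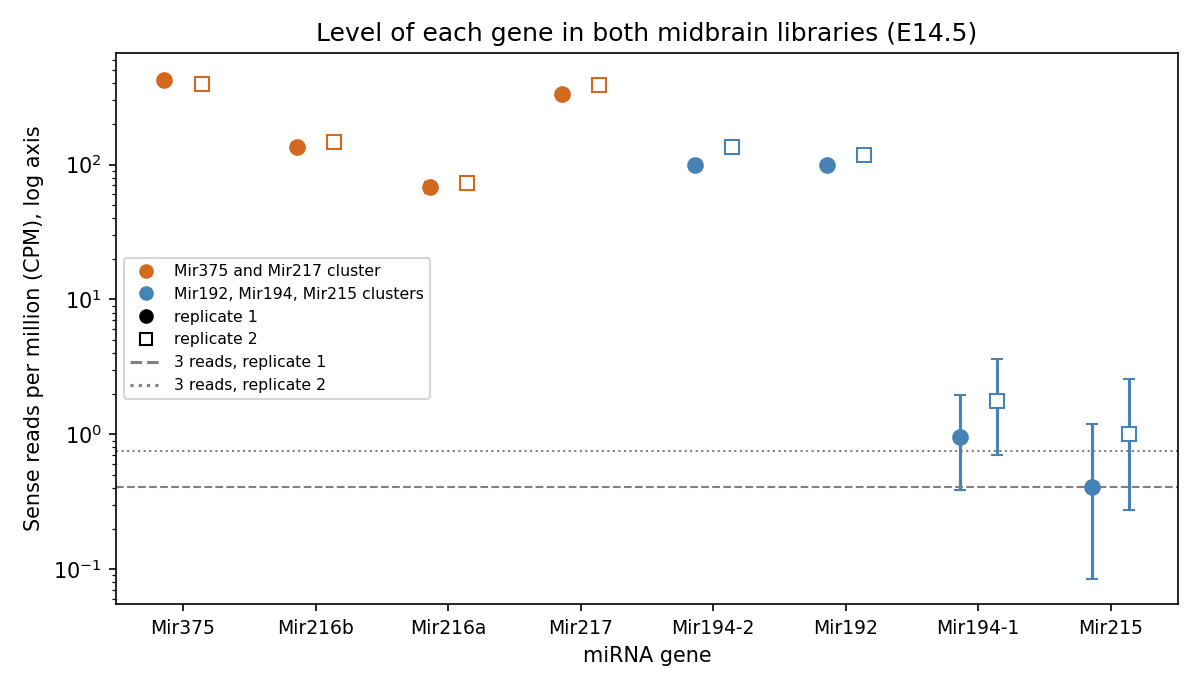
Sense CPM at each of the 8 genes on a log axis, with replicate 1 as filled circles and replicate 2 as open squares, exact Poisson 95% intervals (smaller than the symbols at the 6 higher genes), and the level of 3 reads in each library as dashed and dotted lines. The 6 higher genes sit between 67.6 and 422 CPM, and Mir194-1 and Mir215 sit between 0.411 and 1.76 CPM.

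Of the 8 genes, 6 had at least 10 sense reads in each replicate, where 20.1% of all 1973 miRNA genes did. This share is a description, because the genes were chosen with earlier results of these data known. Among the 397 detected genes the median level was 120 CPM, with quartiles of 15.9 and 812 CPM. Mir375 and Mir217 stood above 65.0% and 62.2% of the detected genes, Mir216b above 51.1%, Mir194-2 above 49.1%, Mir192 above 48.1% and Mir216a above 42.6%. By mean CPM they held places 139, 150, 194, 202, 206 and 228, while Mir194-1 and Mir215 held places 447 and 538. Mir375 stood at 0.192% of the level of the most abundant gene, Mir99a. All 8 genes together took 1158 CPM in replicate 1 and 1262 CPM in replicate 2. These libraries held 7302633 and 3966727 sense reads, so 1 read equalled 0.137 and 0.252 CPM.

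**Figure D2:**
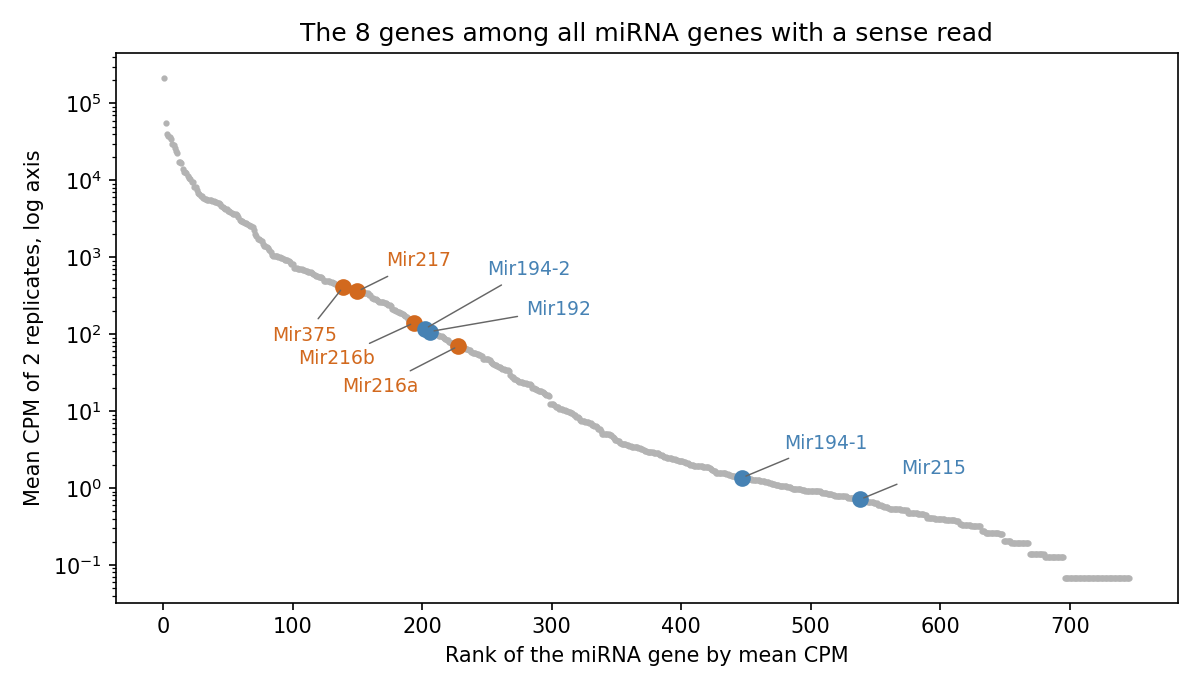
Mean CPM of 2 replicates on a log axis against the rank of each miRNA gene that had a sense read (grey), with Mir375 and the Mir217 cluster in orange and the Mir192, Mir194 and Mir215 genes in blue. Mir375, in place 139, and Mir216a, in place 228, bound the 6 detected genes, and Mir215 lies far down the tail in place 538.

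Set against each other as groups, the pancreas genes were the higher in the reads that could be placed. The liver and gut sum leaves out reads of exactly miR-194-5p. Mir375, Mir216b, Mir216a and Mir217 summed to 958 and 1007 CPM in replicates 1 and 2, a mean of 983 ± 35.0 CPM. Mir194-2, Mir192, Mir194-1 and Mir215 summed to 200 and 255 CPM, a mean of 227 ± 38.9 CPM. The sums did not overlap, and the pancreas group was 4.79-fold higher in replicate 1 and 3.95-fold higher in replicate 2, or 2.12 ± 0.20 on the log2 scale (SD, n = 2). Of the miRNA genes in each group, 4 of 4 pancreas genes and 2 of 4 liver and gut genes were detected. Of all 1973 miRNA genes 20.1% were. Both undetected genes belong to the same cluster, Mir194-1 and Mir215. No test was made of the difference between the groups, because the genes were chosen with their levels known.

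**Figure D3:**
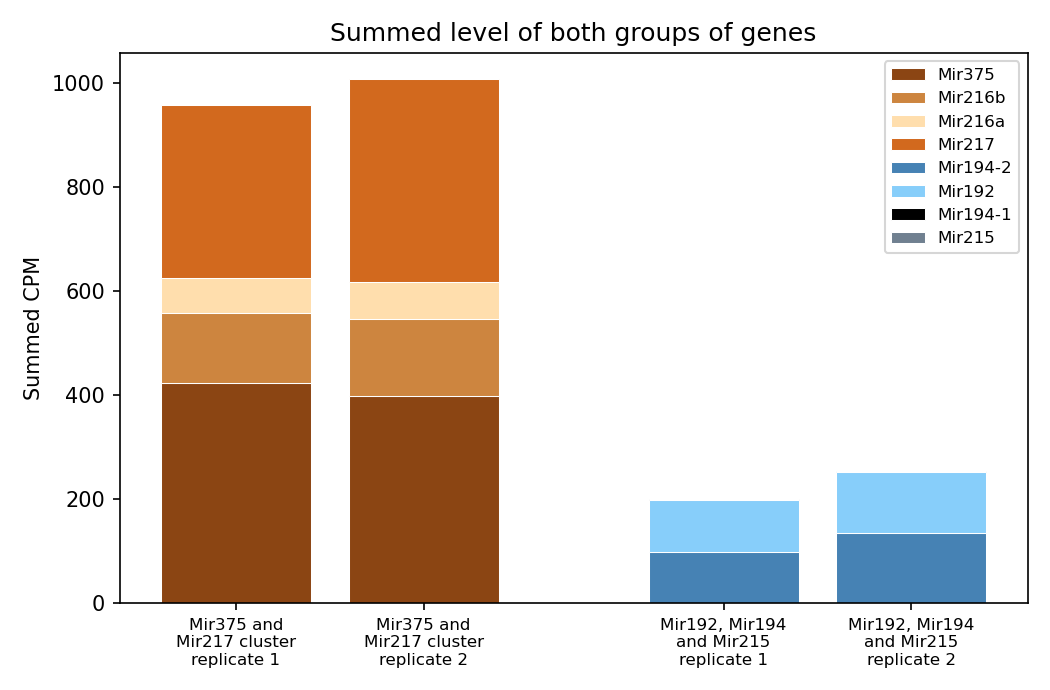
Summed CPM of Mir375 and the Mir216b, Mir216a and Mir217 cluster (orange shades, 958 and 1007 CPM) and of the Mir192, Mir194 and Mir215 genes (blue shades, 200 and 255 CPM) in replicates 1 and 2, stacked by gene from an axis at 0. Mir375 and Mir217 fill most of the orange bars, and Mir194-1 and Mir215 are too low to be seen in the blue ones.

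How far the groups stood apart depended on the genes summed. With both Mir194 genes left out for their shared bases, the pancreas group exceeded Mir192 and Mir215 by 3.18 ± 0.12 on the log2 scale. Leaving genes out of the lower group can only raise the difference, so this step does not test its direction. Cluster against cluster, Mir216b, Mir216a and Mir217 at 572 ± 51.9 CPM exceeded Mir194-2 and Mir192 at 225 ± 38.0 CPM 2.56 ± 0.200-fold. Mir375 alone exceeded the Mir194-2 and Mir192 cluster 1.86 ± 0.388-fold. The paralogous clusters themselves lay far apart. In replicate 1 Mir194-2 and Mir192 summed to 198 CPM, against 1.37 CPM for Mir194-1 and Mir215. In replicate 2 the sums were 252 and 2.77 CPM. The fold was 145 in replicate 1 and 90.9 in replicate 2.

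The 3 genes of the Mir217 cluster lie on the plus strand of chromosome 11. Mir216b (ENSMUSG00000076318.1) is at chr11:28746191-28746276, Mir216a (ENSMUSG00000065539.1) at chr11:28757012-28757083 and Mir217 (ENSMUSG00000065415.1) at chr11:28763728-28763835. The gaps between them are 10735 and 6644 bases. In GENCODE M21, Mir216a and Mir217 are in introns of the noncoding gene Gm12082, which starts downstream of Mir216b, while RefSeq places Mir216b inside the noncoding gene Mir217hg. Mir216c is annotated on the opposite strand over Mir216b and was not analysed here. No opposite-strand read was listed at Mir216b or at any other of the 8 genes in either library.

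Reads in this cluster were uneven in a stable way. Mir217 exceeded Mir216a 4.91-fold in replicate 1 and 5.36-fold in replicate 2, and exceeded Mir216b 2.44-fold and 2.65-fold. Mir216b exceeded Mir216a 2.01-fold and 2.02-fold, with exact intervals of 1.80 to 2.24 and 1.75 to 2.34. These ratios within a cluster do not depend on library size. Both libraries therefore gave Mir217, Mir216b and Mir216a in the same proportions within an SD of 0.090 log2 or less. The middle gene of the cluster was the lowest.

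The Mir194-2 and Mir192 genes lie 115 bases apart on the plus strand of chromosome 19. Mir194-2 (ENSMUSG00000065582.1) is at chr19:6264643-6264728 and Mir192 (ENSMUSG00000065523.1) at chr19:6264844-6264932, between Atg2a and Ehd1, with no annotated gene over them. Their counts were close to equal, Mir194-2 to Mir192 being 0.996 in replicate 1 (exact interval 0.897 to 1.11) and 1.16 in replicate 2 (1.02 to 1.31). Since reads of miR-194-5p alone cannot be placed, the equality applies to the reads that could be placed.

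The paralogous pair lies on chromosome 1, in an intron of Iars2, which is on the opposite strand, and within the noncoding gene 2010103J01Rik on their own strand, where Mir194-1 is intronic and Mir215 overlaps an exon. Mir194-1 (ENSMUSG00000065581.1) is at chr1:185313319-185313385 and Mir215 (ENSMUSG00000065562.1) at chr1:185313581-185313692, 195 bases apart. Mir192 exceeded Mir215 242-fold in replicate 1 (exact interval 82.5 to 1176) and 116-fold in replicate 2 (45.0 to 428). Mir194-2 exceeded Mir194-1 103-fold (49.9 to 258) and 76.6-fold (36.9 to 191). The lower bounds were 36.9-fold or more for both pairs, in spite of the few reads of the low member. The part of unplaced miR-194-5p reads in the gap of the Mir194 genes was not tested.

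Summed by 5p seed, the UGACCUA seed of miR-192 and miR-215 stood at 99.8 CPM in replicate 1 and 118 CPM in replicate 2, of which Mir192 gave 99.6% and 99.1%. The GUAACAG seed of miR-194 stood at 99.96 and 137 CPM, with 99.0% and 98.7% from Mir194-2. These sums count reads of both arms, because the tables do not separate 5p from 3p. The GUAACAG sum and its split leave out reads of exactly miR-194-5p, which could not be placed. They are therefore not the full level of that seed and not directly comparable with the UGACCUA sum. The 3p seed of miR-194-2, CAGUGGG, is also found in miR-6926-5p, whose gene Mir6926 had 11 reads in replicate 1 and 1 read in replicate 2.

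Other genes known from digestive organs gave a mixed picture in the same libraries. Of 4 such genes, 3 were detected, where 20.1% of all 1973 miRNA genes were. Mir148a, which is abundant in liver and pancreas, had 246 CPM in each replicate (1793 and 975 reads) and so stood between Mir217 and Mir216b. Mir31, known from squamous and intestinal epithelium, had 88.5 CPM in replicate 1 and 115 CPM in replicate 2, near Mir192. Mir122, the dominant miRNA of hepatocytes, had 14.1 and 10.3 CPM (103 and 41 reads). Mir802, known from liver and islet, had 7 and 4 reads, 0.959 and 1.01 CPM. The hepatocyte gene thus stood below each of the 6 detected pancreas, liver and gut genes.

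Marker genes of other cell types place these levels, and their detection stands beside the 20.1% of all 1973 miRNA genes that were detected. Of 10 brain genes, 8 were detected, and together the 10 took 36135 and 41170 CPM in replicates 1 and 2. The neural genes Mir149 and Mir137 led them with 17513 ± 704 and 12716 ± 1726 CPM. Mir153, Mir128-1, Mir132 and Mir9-3 had means between 536 and 5876 CPM. Mir124a-1 and Mir124a-2 were low, at 6.66 and 11.3 CPM. Mir124a-3 and Mir9-2, at 1.92 and 2.09 CPM, were under 10 reads in a library. Neural miRNAs were thus present, but the list was chosen with earlier results known and is no check on the tissue label. All 10 except Mir137, Mir149, Mir153 and Mir132 have a near-identical copy, so reads of the copied genes may lie outside the gene counts. Epithelial genes were detected at 7 of 7 loci, and their sum of 787 and 805 CPM came mostly from Mir203 at 731 ± 5.66 CPM. Mir200a, Mir200b, Mir200c, Mir141 and Mir429, which mark simple epithelia such as gut, lay between 2.21 and 22.2 CPM, all below Mir192. Muscle genes were detected at 3 of 8 loci with a count and summed to 34.6 and 46.4 CPM. The detected ones were Mir206 at 26.4 ± 5.04 CPM, Mir208b at 8.94 ± 1.61 CPM and Mir499 at 3.90 ± 1.26 CPM. Mir133a-1 and Mir133a-2 had 0 reads in both libraries, but both have a near-identical copy, so their reads may lie outside the gene counts. The part of any such cells in the reads of the 8 genes was not tested, and in whole tissue fewer cells and less RNA per cell cannot be told apart.

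By level over both libraries, the nearest other detected genes to Mir375 were Mirlet7c-1 at 405 ± 13.2 CPM and Mir669o at 405 ± 20.7 CPM. Both have near-identical copies. The nearest to Mir217 were Mir672 at 356 ± 37.8 CPM and Mir543 at 356 ± 20.99 CPM, and the nearest to Mir192 were Mir877 at 110.0 ± 13.8 CPM and Mir222 at 101 ± 7.93 CPM. Likeness here is the distance of log2(CPM + 1) over 2 libraries, which were 0.15 or less for these genes.

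Between the libraries the detected members moved little. After scaling with TMM, log2(replicate 2/replicate 1) was -0.17 for Mir375, 0.01 for Mir216a, 0.02 for Mir216b, 0.14 for Mir217, 0.15 for Mir192 and 0.36 for Mir194-2. Over all 397 detected genes the median was 0.01, with quartiles of -0.25 and 0.22. Only Mir194-2 fell outside these quartiles. Coefficients of variation were taken on CPM by plain totals, without TMM. On that scale Mir216a and Mir216b had 5.00% and 5.57%, Mir375 4.11%, Mir217 11.2%, Mir192 11.5% and Mir194-2 21.8%. The median over all detected genes was 12.6%. The order depends on the scaling. With TMM sizes the SD of Mir375 was 34.8 CPM in place of 16.9 CPM, while that of each other detected member was smaller than with plain totals. Mir216a then had an SD of 0.441 CPM and Mir216b of 1.69 CPM.

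An exact binomial test with Benjamini-Hochberg adjustment over the 397 genes, which allows for counting error only, separated the libraries at 3 of 6 members, where 53.9% of all detected genes were separated. The members' share is thus near the background. Mir375 was lower in replicate 2 (adjusted p = 0.00025 in that exact test), as were 29.5% of all detected genes. Mir217 and Mir194-2 were higher (adjusted p = 0.00621 and 3.85e-05 in that exact test), as were 24.4% of all. It compares these libraries, not conditions, and has no replicate check. With a spread between libraries assumed, edgeR's exactTest was run at a chosen dispersion of 0.01, not one estimated from the data. In it 0 of 6 members were separated where 6.30% of all detected genes were, and 0 of 6 had an unadjusted p under 0.05. With plain totals in place of TMM, Mir375 was no longer separated (adjusted p = 0.106 in the exact binomial test) and Mir192 was (adjusted p = 0.0138), where 54.7% of all detected genes were. The red cell genes Mir451a, Mir144 and Mir486 summed to 486 and 153 CPM in replicates 1 and 2, and ciliated and choroid plexus genes to 2037 and 1502 CPM. Most of these drops lay in Mir451a, with 447 and 123 CPM, and Mir449a, with 587 and 265 CPM, while Mir486 (9.86 and 10.8 CPM) and Mir211 (16.3 and 19.4 CPM) were not lower in replicate 2. The part of such cells in the lower value of Mir375 in replicate 2 was not tested.

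**Figure D4:**
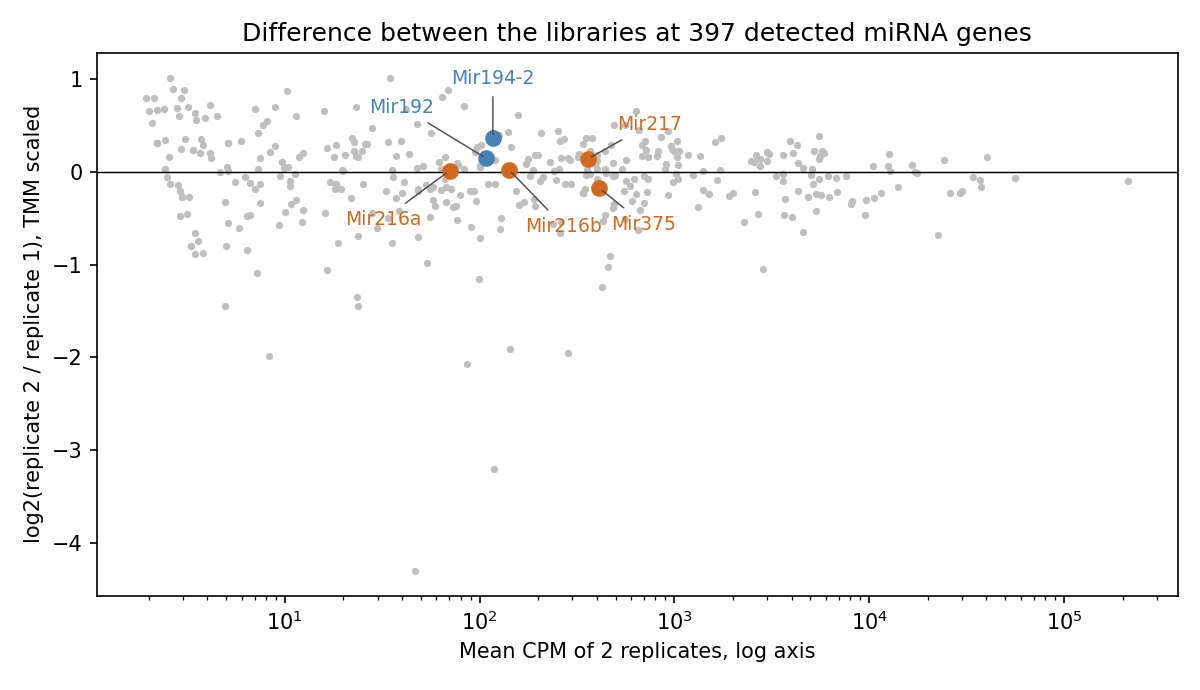
Log2 ratio of replicate 2 to replicate 1 after TMM scaling against mean CPM on a log axis for the 397 detected miRNA genes (grey), with the 4 detected pancreas genes in orange and the 2 detected liver and gut genes in blue. The 6 coloured genes lie between -0.17 and 0.36, within the band of the other genes.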

How the data were processed

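MicroRNA sequencing covered total RNA in 2 midbrain libraries, with a stated size range under 30 nt per the labels. The authors deposited 1 table of raw read counts per library, for both strands together, the annotated strand and the opposite strand, on mm10 with annotation M4, per the description deposited beside each table. Aligner and counter were not given in the sources used here. Of all 17853282 and 9565117 reads, 19.0% and 18.5% were unmapped, 36.2% and 36.9% mapped to several places and 3.10% and 2.17% lay in no miRNA gene; these classes stayed out of library sizes and tests.

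Sense counts were divided by their library total to give CPM. Symbols and positions came from GENCODE M21 (1894 of 1973 identifiers matched), sequences from RefSeq. A near-identical copy means 20 exact nt shared with another, non-overlapping miRNA hairpin. Detection required 10 reads in each library. TMM sizes and exactTest came from edgeR 4.0.16, size factors from DESeq2 1.42.0, and binomial tests from scipy 1.17.1. The binomial step was tested on simulated Poisson counts with no spread between libraries beyond counting error. That run therefore cannot check the calls made between the real libraries. No quasi-likelihood test was run, because 1 group gives no contrast. Genes named were the 8 members, listed marker genes, genes sharing a seed, and for Mir375, Mir217 and Mir192 the 2 nearest in level. Members and lists were chosen with earlier results of these data known. Alternatives were other library sizes, the unstranded count, other read minimums, near-identical copies left out, a median, a pseudocount of 1, and each replicate left out.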

Additional observations from a re-analysis of the deposited data

How the results depend on the processing

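The higher sum of the pancreas genes kept its direction under each alternative run, but several of these could not have reversed it. Other library sizes cancel in the ratio of the sums, and the unstranded count added no read at these genes. Leaving out the genes with a near-identical copy, both in the liver and gut group, could only raise the difference. No alternative took in the unplaced reads shared by the Mir194 genes, so their effect on the direction was not tested. The log2 difference was 2.12 as reported, 3.18 without genes that have a near-identical copy, 3.83 as a difference of medians of log2(CPM + 1), and 1.34 without Mir375, an alternative chosen after seeing the data. Without either replicate it lay between 1.98 and 2.26. With all reads of the library as denominator the pancreas sum was 405 CPM and the liver and gut sum 93.7 CPM, lower because the denominator is larger, and without the copied genes the liver and gut sum was 109 CPM. With log2 of CPM + 1, the log2 ratio of Mir216b to Mir216a was 1.00 in place of 1.01 and that of Mir194-1 to Mir215 was 0.47 in place of 1.01. The log2 ratio of Mir194-2 to Mir192 was 0.10 as reported and ranged from -0.0060 without replicate 2 to 0.21 without replicate 1, so its sign rests on replicate 2. Members separated between the libraries numbered 3 of 6 as reported, where 53.9% of all detected genes were separated. In edgeR's exactTest they numbered 0 of 6, where 6.30% of all detected genes were separated. The dispersion of 0.01 in that test was a chosen value, not one estimated from the data. No paired analysis was possible because the series has 1 group. The count of members separated could not be recomputed with a replicate left out. Mir194-1 and Mir215, at 3 to 7 reads, are limited by depth.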
